A study of Homo sapiens with 14 samples.

Results

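Ribosome biogenesis and nucleolar genes encode the proteins that make ribosomal RNA in the nucleolus, cut and modify it, and assemble it into the 2 ribosomal subunits. A list of 42 gene symbols was used, grouped by what the proteins do and chosen with earlier results of these data known. Of the 42, 31 had at least 1 probe set whose only annotated symbol was that gene, out of 11963 genes on the array with such a probe set, and these 31 genes had 44 probe sets. NOP56, DKC1, BOP1, DDX47 and PPAN lay only on probe sets with several symbols, NOP58, DDX18, UTP4, EBNA1BP2, GNL3 and POLR1A matched no probe set by symbol, and these 11 were not analysed here. RRN3, an initiation factor of RNA polymerase I, was too dim to test, so that 30 members were tested.

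The RNA came from Kasumi-1, an established human acute myeloid leukaemia line with the AML1-ETO (RUNX1-RUNX1T1) fusion gene, collected 96 h after transfection. An siRNA against AML1-ETO was given by nucleofection (an electrical transfection, 1.5 µM siRNA) on 3 arrays and by the lipid reagent siLentFect (240 nM) on 3. An siRNA against firefly luciferase, a gene these cells do not have, was given by nucleofection on 2 arrays and by lipid on 3. A single array had cells nucleofected with no siRNA, and 2 arrays had untransfected cells. All groups shared the line and its fusion, so there was no fusion-free control, and siRNA dose and method cannot be told apart. Whether replicates were separate cultures was not stated in the labels, and p-values therefore reflect array-to-array spread that may be technical.

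In the nucleolus, RNA polymerase I, with factors such as UBTF, transcribes a long precursor of the 18S, 5.8S and 28S ribosomal RNAs. Small nucleolar ribonucleoproteins (snoRNPs) of the box C/D and box H/ACA kinds methylate and pseudouridylate it, the small subunit processome and DEAD-box helicases fold and cut it, and further factors, among them the PES1-BOP1-WDR12 complex, mature the large subunit. In many cell types these genes are targets of MYC, which binds the E-box CACGTG together with MAX, and the AML1 part of the fusion binds the RUNX motif TGTGGT.

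Promoters of 4 members are shown because DDX21 and WDR12 had the smallest p-values between the siRNAs, and PUS7 and PNO1 had the largest differences between the transfection methods in each direction. The sequences are RefSeq's on GRCh38.p14, read 5′ to 3′ on the gene's strand, from 250 bases before to 50 after the annotated start, with any E-box CACGTG and any RUNX motif TGTGGT, on either strand, in capitals. The windows are chr10:68955920-68956219 (+) for DDX21, chr2:202911624-202911923 (-) for WDR12, chr7:105522222-105522521 (-) for PUS7 and chr2:68157638-68157937 (+) for PNO1.
DDX21: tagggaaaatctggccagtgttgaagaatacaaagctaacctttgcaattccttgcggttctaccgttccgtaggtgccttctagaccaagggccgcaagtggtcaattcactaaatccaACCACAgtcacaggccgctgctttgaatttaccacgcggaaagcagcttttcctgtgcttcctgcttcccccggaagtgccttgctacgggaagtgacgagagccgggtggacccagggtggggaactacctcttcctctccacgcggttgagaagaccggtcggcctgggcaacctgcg
WDR12: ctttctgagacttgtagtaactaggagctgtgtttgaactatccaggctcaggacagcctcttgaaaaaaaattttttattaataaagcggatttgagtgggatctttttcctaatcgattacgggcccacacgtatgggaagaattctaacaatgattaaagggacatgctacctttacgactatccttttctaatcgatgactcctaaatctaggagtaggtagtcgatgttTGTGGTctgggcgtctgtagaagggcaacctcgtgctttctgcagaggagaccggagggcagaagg
PUS7: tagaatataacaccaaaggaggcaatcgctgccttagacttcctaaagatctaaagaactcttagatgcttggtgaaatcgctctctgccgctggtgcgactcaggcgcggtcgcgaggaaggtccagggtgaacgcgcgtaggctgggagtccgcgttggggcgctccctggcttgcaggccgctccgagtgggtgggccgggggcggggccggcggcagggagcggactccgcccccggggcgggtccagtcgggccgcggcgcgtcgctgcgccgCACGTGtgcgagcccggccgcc
PNO1: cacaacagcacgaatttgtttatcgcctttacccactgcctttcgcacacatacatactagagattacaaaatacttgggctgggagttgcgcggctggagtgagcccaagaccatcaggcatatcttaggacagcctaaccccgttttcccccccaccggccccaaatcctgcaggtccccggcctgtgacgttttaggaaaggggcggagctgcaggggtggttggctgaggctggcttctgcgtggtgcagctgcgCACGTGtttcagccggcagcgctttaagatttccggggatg
PUS7 and PNO1 held an E-box that began 29 and 10 bases after the start, and DDX21 and WDR12 held none. WDR12 held the RUNX motif 16 bases before its start, and DDX21 held it on the opposite strand 130 bases before its start.

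Of the 42 symbols, 35 matched a RefSeq promoter, 26 of them tested members. The E-box stood in 15 of these 35 windows (42.9%), against 7.43% of 27305 promoters of the same length. In the 100 bases around the start, 50 on each side, 14 of 35 (40%) held it, against 2.87% of all promoters. Among the tested members these 13 genes were BYSL, FBL, GNL2, MRTO4, NOP14, NOP2, PES1, PNO1, PUS7, RRP9, UTP18, UTP20 and WDR43. The RUNX motif stood in 3 of 35 (8.57%), namely DDX21, MRTO4 and WDR12, against 13.1% of all promoters. A match describes letters in a window, and binding was not measured here.

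The libraries were checked with RUNX1T1, the fusion partner for which a probe set was used. Its signal was between 251 and 328 with AML1-ETO siRNA by nucleofection and between 644 and 763 with luciferase siRNA by nucleofection, a log2 difference of −1.24 (adjusted p = 0.00288). By lipid it lay between 400 and 502 with AML1-ETO siRNA and between 540 and 567 with luciferase siRNA, a log2 difference of −0.34 that did not pass the test (adjusted p = 0.999). The arrays of the 2 methods also stood apart in control probe sets for ribosomal RNA. Whether these signals follow the amount of ribosomal RNA made by the cells was not tested. The 18S 3′ control had a signal between 199 and 2442 on the 6 nucleofection arrays and between 8.81 and 83.5 on the other 8, and 8 of 9 such controls did not overlap. The log2 GAPDH 3′ to 5′ ratio, a measure of RNA quality, lay between −0.18 and 0.25 on the nucleofection arrays and between −0.38 and −0.17 on the others. Marker genes of the Kasumi-1 blast summed to signals between 7610 and 10142, with ANPEP below a signal of 20 on every array. Marker sums for T, B, erythroid, epithelial and fibroblast cells did not exceed 336 on any array.

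With AML1-ETO siRNA, 27 of the 30 members had log2 differences from luciferase siRNA below 0 in the mean of both methods, with a median of −0.18, but none passed the test across all genes. Differences are on the log2 scale of the signal with a floor of 20, and calls were made with limma over all 7178 genes tested, where the Benjamini-Hochberg adjusted p was below 0.05. At that threshold 0 of 30 members and 1.66% of all genes were called. At an unadjusted p below 0.05, 4 members were lower and 0 higher, 13.3% of the members against 14.4% of all genes. Over all genes 64.9% of differences lay below 0 and the median was −0.07. FBL (0.04), RRP1 (0.13) and RRS1 (0.15) were the members above 0.

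DDX21, an RNA helicase of ribosomal RNA transcription and processing, had the smallest p of the members. Its signals were 1253, 1675 and 1203 with AML1-ETO siRNA by nucleofection and 1874 and 2054 with luciferase siRNA by nucleofection. By lipid they were 1213, 950 and 985 with AML1-ETO siRNA, against 1589, 1286 and 1582 with luciferase siRNA. Every AML1-ETO array was below every luciferase array of its method, a pattern that 1 of 30 members and 1.38% of all genes showed. Signals were 1754 after nucleofection without siRNA and 1522 and 1583 in untransfected cells. The mean log2 difference between the siRNAs was −0.52 (SE 0.12), a ratio of 0.700, with an adjusted p of 0.061. Its 95% interval ran from −0.78 to −0.25. The difference passed the threshold under quantile normalization (adjusted p = 0.045). It did not pass under median centring or under the scaling reported here.

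**Figure D1:**
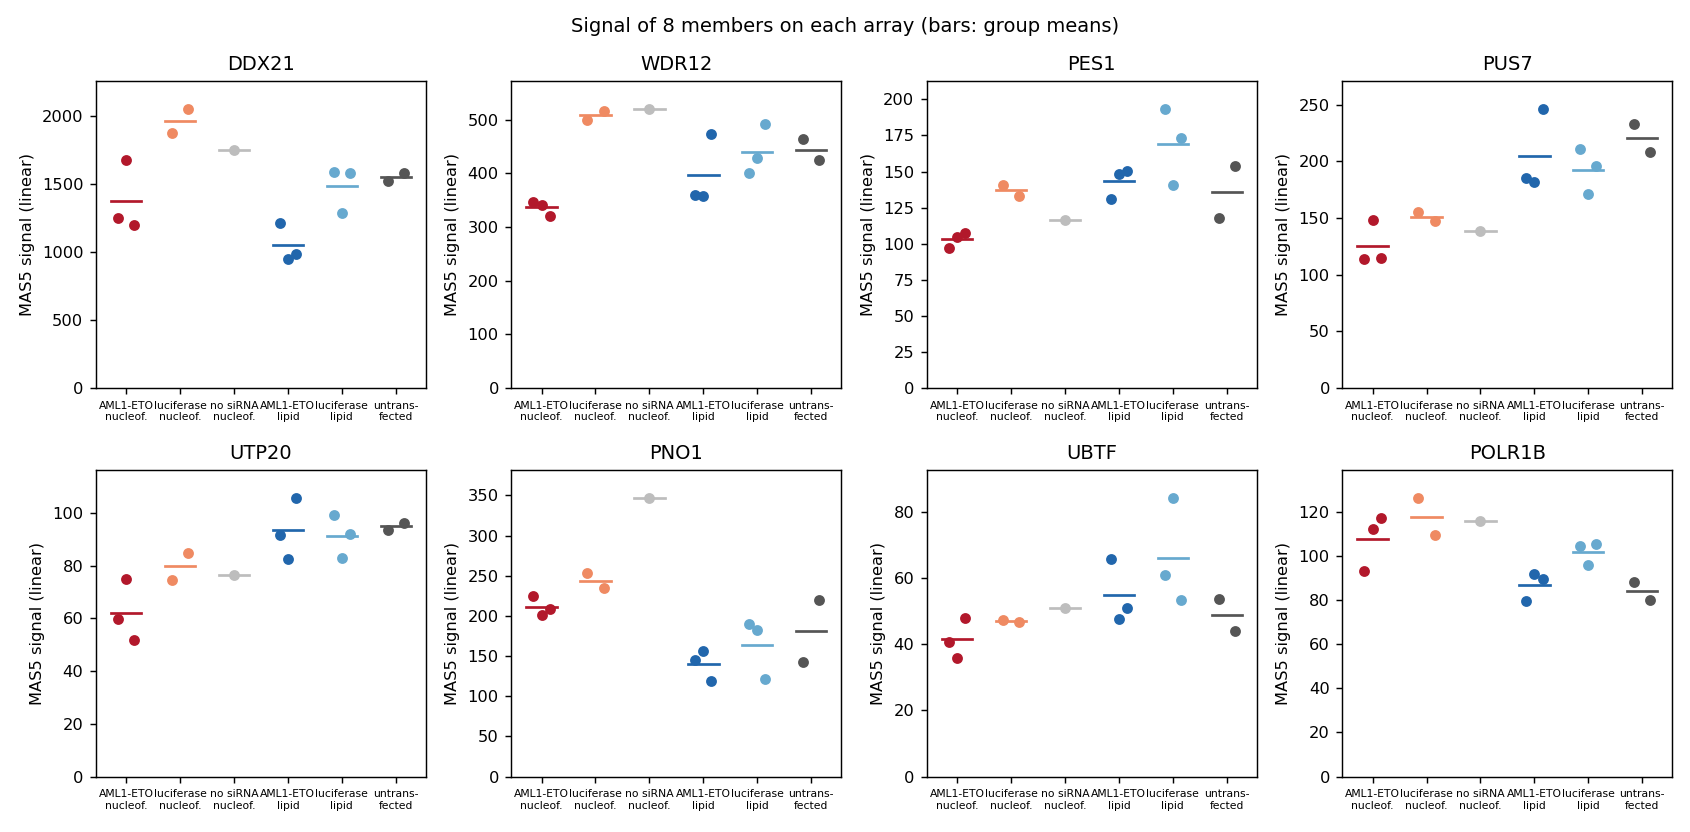
MAS5 signal (linear, vertical axis from 0) of 8 members on each of the 14 arrays, with 1 point per array and a bar at each group's mean; nucleof. stands for nucleofection. Within each method, DDX21 lay lower on every AML1-ETO siRNA array than on every luciferase siRNA array. PUS7 was lower on all 6 nucleofection arrays than on the other 8.

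The large subunit factors had a median log2 difference of −0.23 between the siRNAs, with 8 of 10 below 0 and 0 called. WDR12, a subunit of the PES1-BOP1-WDR12 complex, had signals of 347, 341 and 321 with AML1-ETO siRNA by nucleofection and 500 and 517 with luciferase siRNA by nucleofection. By lipid it had 359, 359 and 474 with AML1-ETO siRNA and 400, 429 and 492 with luciferase siRNA. The nucleofection groups did not overlap and the lipid groups did. The mean log2 difference was −0.38 (SE 0.11, adjusted p = 0.126).

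PES1, another subunit of the same complex, had signals of 97.2, 105 and 108 with AML1-ETO siRNA by nucleofection, against 141 and 133 with luciferase siRNA. By lipid its signals were 131, 149 and 150 with AML1-ETO siRNA and 193, 141 and 173 with luciferase siRNA. The groups were separate by nucleofection and overlapped by lipid, and the mean log2 difference was −0.32 (SE 0.12, adjusted p = 0.23). NOP16, a large subunit assembly factor, had −0.31 (adjusted p = 0.332). GNL2, a nucleolar GTPase of large subunit export, had −0.32, and MRTO4, which acts on the early ribosomal stalk, had −0.27, both with wide spreads (SE 0.19 and 0.26).

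All 8 small subunit factors lay below 0, between −0.52 for DDX21 and −0.03 for BYSL, with a median of −0.19 and 0 called. NOP14, a processome subunit, had −0.30, and the helicase DDX10 and the assembly factor PNO1 each had −0.21. The 4 scaffold proteins all lay below 0, with a median of −0.21. NCL (nucleolin) had −0.29, NOLC1, a snoRNP chaperone, −0.24, TCOF1, a scaffold of ribosomal DNA transcription, −0.18, and NPM1 (nucleophosmin), which is mutated in many acute myeloid leukaemias, −0.12.

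Of the RNA polymerase I genes, UBTF had −0.22, the polymerase subunit POLR1B −0.18 and POLR1C, shared with RNA polymerase III, −0.09, and none was called. The box C/D proteins were near 0, with −0.06 for RRP9 and 0.04 for the methyltransferase FBL (fibrillarin). The box H/ACA proteins GAR1 and NHP2 had −0.22 and −0.08, and PUS7, a stand-alone pseudouridine synthase grouped with them, had −0.10.

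By nucleofection alone 28 of 30 members and 63.2% of all genes lay below 0, the members with a median of −0.25, against −0.11 over all genes. None of the 30 was called, against 2.62% of all genes. An unadjusted p below 0.05 was found for 4 members, all lower (13.3%), against 18.9% of all genes. WDR12 had a log2 difference of −0.60 (SE 0.16, adjusted p = 0.0778), DDX21 −0.53 (adjusted p = 0.152), PES1 −0.41 (adjusted p = 0.233) and DDX10 −0.50 (adjusted p = 0.242). DDX10 had signals of 80.9, 133 and 109 with AML1-ETO siRNA and 137 and 162 with luciferase siRNA by nucleofection. The 133 of the second array lay close to the lower luciferase array, and the groups did not overlap. The log2 GAPDH 3′ to 5′ ratio differed along with them, between −0.18 and −0.11 with AML1-ETO siRNA and between 0.03 and 0.25 with luciferase siRNA by nucleofection. This ratio was a covariate in a setting described below, and there too none of the 30 members was called by nucleofection. How much of the differences goes with the ratio was not tested. WDR12 passed the threshold when quantile normalization, median centring, a narrower filter, a variance trend or the scale factor was used.

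On every AML1-ETO array 13 of 30 members (43.3%) lay below both luciferase arrays by nucleofection, against 25.4% of all genes. They were NPM1, NOLC1, TCOF1, NHP2, GAR1, UTP18, NOP14, PNO1, DDX10, DDX21, PES1, WDR12 and RRP1B. None lay above on every array, against 12.1% of all genes. Under quantile normalization the median was −0.18 with 25 below 0, and under median centring −0.17 with 25 below 0, while the median of all genes was −0.02 and −0.03.

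By lipid 22 of 30 members and 57.1% of all genes lay below 0, the members with a median of −0.07, against −0.03 over all genes. None was called, against 0.125% of all genes, and 1 (3.33%) had an unadjusted p below 0.05, against 4.53% of all genes. DDX21 had −0.50 (SE 0.17, adjusted p = 0.724). NCL had signals of 622, 638 and 1311 with AML1-ETO siRNA and 1127, 1263 and 1127 with luciferase siRNA by lipid. The third AML1-ETO array was the highest of all 6, and the log2 difference was −0.54 (SE 0.26, adjusted p = 0.999). POLR1B had signals of 79.4, 91.8 and 89.7 with AML1-ETO siRNA, against 104, 95.9 and 105 with luciferase siRNA, groups that did not overlap. Its log2 difference was −0.23 (SE 0.14, adjusted p = 0.999). POLR1B, DDX21 and GNL2, 3 of 30 members (10%), lay below luciferase siRNA on every lipid array, against 4.95% of all genes.

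**Figure D2:**
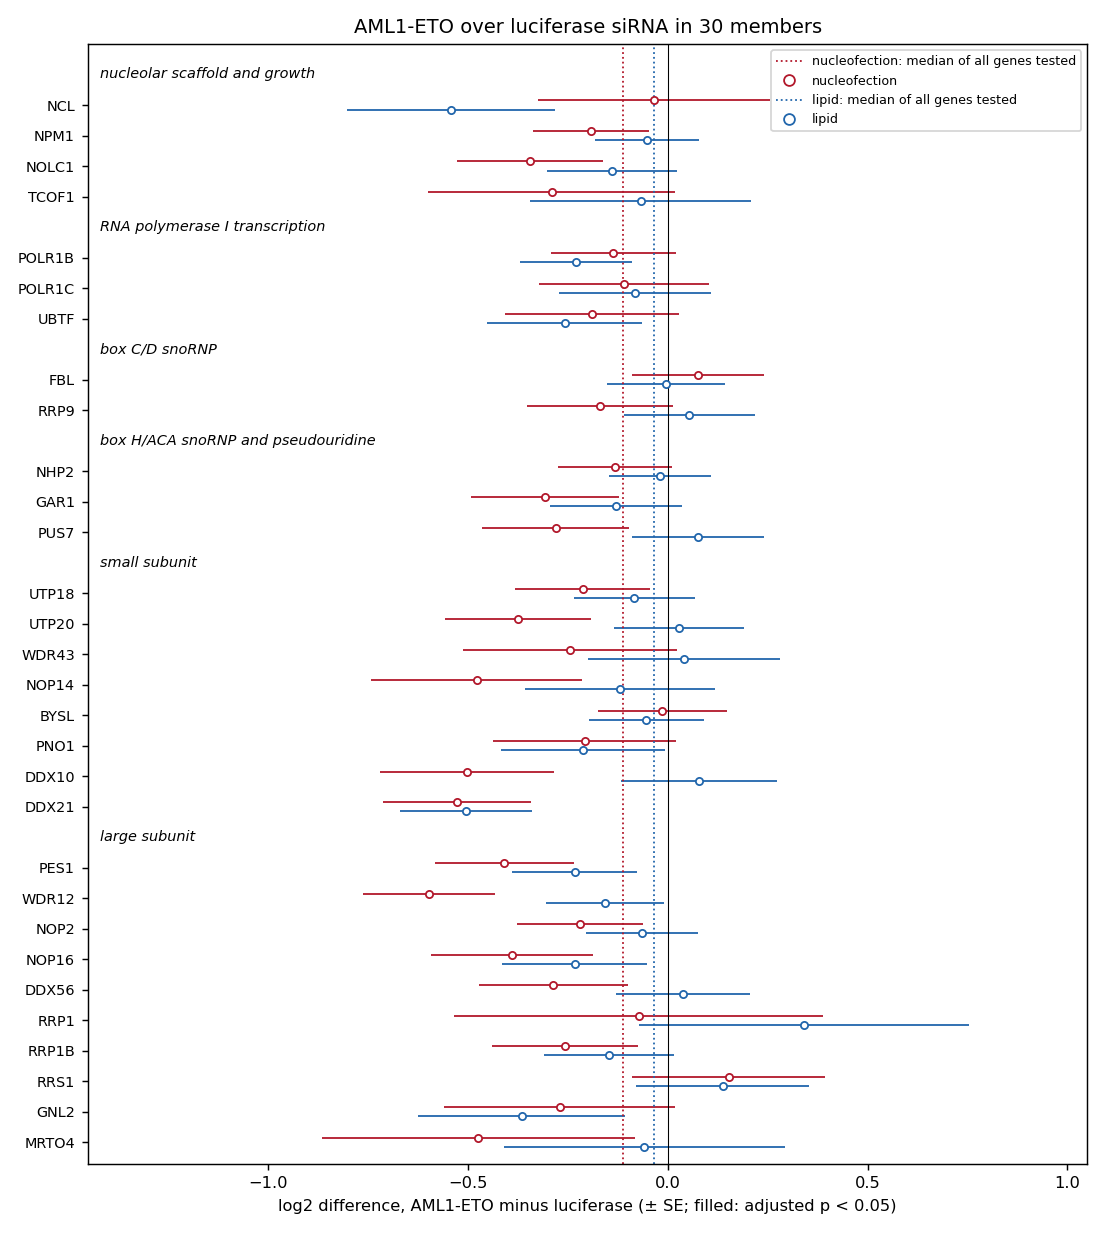
Log2 difference of AML1-ETO minus luciferase siRNA (horizontal axis) for the 30 tested members by role, with nucleofection in red and lipid in blue; bars are ± SE and dotted lines the medians of all 7178 genes. None of the points is filled, since 0 of 30 members passed the threshold by either method, and 28 by nucleofection and 22 by lipid lie below 0.

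The siRNA difference itself was compared between the methods. None of 30 members was called, against 0.0557% of all genes, and 0 of 30 had an unadjusted p below 0.05, against 10.8% of all genes. WDR12 had a difference of −0.44 between nucleofection and lipid (SE 0.22, adjusted p = 0.517), DDX10 −0.58 (SE 0.29, adjusted p = 0.523) and UTP20 −0.40 (SE 0.24, adjusted p = 0.597). DDX21 had −0.02, with a 95% interval from −0.56 to 0.51. The DDX21 value turned positive under median centring (0.03) and under quantile normalization (0.07).

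Markers of monocytes and neutrophils moved with the siRNA. The 10 such markers summed to signals between 9496 and 13317 with AML1-ETO siRNA and between 3877 and 8740 with luciferase siRNA, with CD14 below a signal of 20 on every array. Of the 8 tested, 4 were called higher in the mean of both methods and 0 lower, against 82 of all 7178 genes called higher. At an unadjusted p below 0.05, 6 of the 8 were higher and 1 lower. Their part in the values of the nucleolar genes was not tested. In bulk RNA, fewer cells of a type and less RNA per cell cannot be told apart.

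Between the transfection methods, 6 members were called under the scaling reported here, with both siRNAs averaged. The log2 differences of nucleofection minus lipid were −0.53 for PUS7, −0.43 for UBTF, −0.40 for UTP20, −0.38 for PES1, 0.40 for DDX21 and 0.60 for PNO1. The 6 called were 20% of the members, against 25.6% of all genes, with 2 higher (3.68% of all genes) and 4 lower (22.0%). The median of the members was −0.12 and that of all genes −0.17. The direction of the group depended on the scaling, since the median was 0.11 under quantile normalization with 22 members above 0, and 0.05 under median centring with 20 above 0. The median of all genes was then −0.01 and 0.01. The calls depended on the scaling too. Under quantile normalization 5 members were called higher and 0 lower, so PUS7, UBTF, UTP20 and PES1 were not called lower there. Under median centring 3 were called higher and 1 lower.

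Markers of other cell types moved with the method too. The 10 monocyte and neutrophil markers summed to between 3877 and 3918 with luciferase siRNA by nucleofection and between 6903 and 8740 with that siRNA by lipid. Of the 8 tested, 4 were called lower, against 505 of all 7178 genes. With AML1-ETO siRNA the sums were between 12662 and 13317 by nucleofection and between 9496 and 11240 by lipid. There 1 marker was called higher and 1 lower, against 130 and 832 of all 7178 genes. The epithelial markers summed to between 135 and 225 on the nucleofection arrays and between 265 and 336 on the other arrays, with KRT19 and CDH1 below a signal of 20 on every array. Of the 3 tested, 2 were called lower in the mean of both siRNAs, against 22.0% of all genes. Of the blast markers tested, 2 of 6 were called lower in that mean, against 22.0% of all genes. Within AML1-ETO siRNA 3 of 6 were, RUNX1T1 among them, against 11.6% of all genes. Of the T cell markers, 1 of 3 was called lower in the mean of both siRNAs, against 22.0% of all genes. The part of all these markers in the values of the members was not tested.

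PUS7, which modifies transfer and messenger RNA, had signals of 113, 148 and 114 with AML1-ETO siRNA by nucleofection and 185, 182 and 246 with that siRNA by lipid. With luciferase siRNA it had 155 and 147 by nucleofection and 211, 171 and 196 by lipid. It had 139 after nucleofection without siRNA, and 233 and 208 in untransfected cells. All 6 nucleofection arrays lay below the other 8, as for 8.99% of all genes. The mean log2 difference was −0.53 (SE 0.12), a ratio of 0.695, with an adjusted p of 0.0095.

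UTP20, a large processome protein that works on precursors of both subunits, had signals of 59.8, 75.0 and 51.7 with AML1-ETO siRNA by nucleofection and 91.6, 82.6 and 106 with that siRNA by lipid. With luciferase siRNA it had 74.6 and 84.9 by nucleofection and 99.0, 82.7 and 92.1 by lipid. The groups were separate with AML1-ETO siRNA, where the share of all genes is not given here, and overlapped with luciferase siRNA. The mean log2 difference of UTP20 was −0.40 (SE 0.12, adjusted p = 0.0325). PES1 had −0.38 (SE 0.12, adjusted p = 0.0312), with every nucleofection array below every lipid array of the same siRNA, although the luciferase groups came close (141 at the highest by nucleofection and 141 at the lowest by lipid). PUS7, UTP18 and PES1, 3 of 30 members, showed this pattern, against 16.2% of all genes.

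DDX21 was higher by nucleofection, with a log2 difference of 0.40 (SE 0.12, adjusted p = 0.0342). PNO1, which holds the maturing end of 18S ribosomal RNA, had signals of 224, 201 and 209 with AML1-ETO siRNA by nucleofection and 145, 157 and 119 with that siRNA by lipid. With luciferase siRNA it had 253 and 235 by nucleofection and 189, 182 and 121 by lipid. Nucleofection was above lipid on every array of both siRNAs, as for 2 of 30 members (PNO1 and POLR1B) and 2.09% of all genes, and the mean log2 difference was 0.60 (SE 0.15, adjusted p = 0.0142). The array without siRNA had 347, and the untransfected arrays had 142 and 220. The second PNO1 probe set had a difference of −0.09 (adjusted p = 0.554), and the set used has a name of the kind that can take signal from related transcripts.

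UBTF, the upstream binding factor of RNA polymerase I, had signals of 40.7, 35.7 and 47.8 with AML1-ETO siRNA by nucleofection and 65.7, 47.7 and 50.9 with that siRNA by lipid. With luciferase siRNA it had 47.2 and 46.6 by nucleofection and 60.8, 84.2 and 53.2 by lipid. The groups overlapped narrowly with AML1-ETO siRNA. The mean log2 difference was −0.43 (SE 0.15, adjusted p = 0.0454), while the second UBTF probe set had 0.25 (adjusted p = 0.253). POLR1B had 0.25 (SE 0.10, adjusted p = 0.092), with nucleofection above lipid on every array of both siRNAs. Its only probe set has a name of the same kind as the PNO1 set used, and can also take signal from related transcripts.

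**Figure D3:**
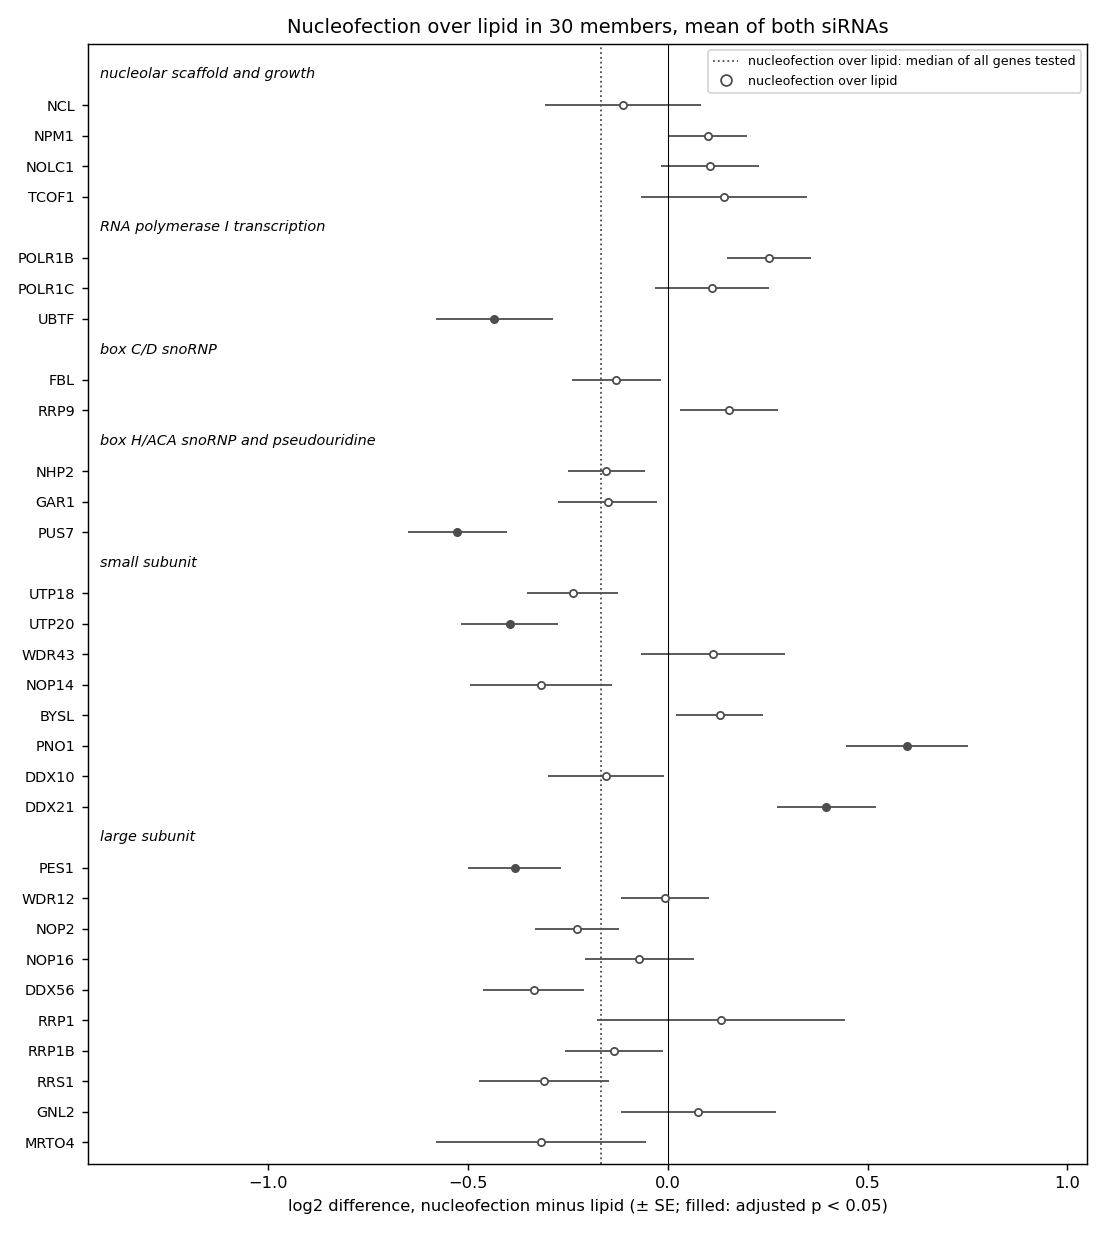
Log2 difference of nucleofection minus lipid, mean of both siRNAs (horizontal axis), for the 30 tested members by role; bars are ± SE, filled points have an adjusted p below 0.05 and the dotted line is the median of all 7178 genes, −0.17. The 6 filled points are PUS7, UBTF, UTP20 and PES1 below 0 and DDX21 and PNO1 above 0.

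Leaving out arrays lost calls while the differences kept their direction. With 1 array left out in turn, the log2 differences ran from −0.59 to −0.46 for PUS7, −0.50 to −0.34 for UBTF, −0.47 to −0.33 for UTP20, −0.45 to −0.33 for PES1, 0.32 to 0.45 for DDX21 and 0.50 to 0.66 for PNO1. The ribosomal RNA control signals and the GAPDH ratio moved with the method, by the ranges given above. With AML1-ETO nucleofection replicate 3 and luciferase nucleofection replicate 1 left out, which had the highest 28S control signals of the siRNA arrays, 0 of 30 members were called. With the GAPDH 3′ to 5′ ratio or the scale factor in the fit, 0 of 30 were called. The share of all genes called under these settings is not given here. A loss of calls particular to the members therefore cannot be told from a loss over all genes. Leaving out luciferase nucleofection replicate 1 alone left 1 call (PUS7), and 2 (PNO1 and PUS7) were left without AML1-ETO lipid replicate 3 or without luciferase nucleofection replicate 2. Leaving out AML1-ETO nucleofection replicate 1 or luciferase lipid replicate 1 left 3 (DDX21, PNO1 and PUS7).

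Within AML1-ETO siRNA, PUS7 (log2 difference −0.70, SE 0.17, adjusted p = 0.0182) and UTP20 (−0.60, SE 0.16, adjusted p = 0.0324) fell by nucleofection relative to lipid, 2 of 30 members against 13.4% of all genes called in either direction and 11.6% called lower. PES1 had −0.47 (adjusted p = 0.0624). Both calls were lost without AML1-ETO nucleofection replicate 1 or 3, or without AML1-ETO lipid replicate 3, and UTP20 was lost without AML1-ETO lipid replicate 1. With 1 array left out, PUS7 ran from −0.83 to −0.56 and UTP20 from −0.74 to −0.47. Within luciferase siRNA 0 of 30 were called, against 8.16% of all genes, and 2 (6.67%) had an unadjusted p below 0.05, both higher, against 25.6% of all genes in either direction. PNO1 had 0.60 (adjusted p = 0.124), DDX21 0.41 (adjusted p = 0.187) and UBTF −0.47 (adjusted p = 0.198). Under quantile normalization 3 other members, DDX21, PNO1 and POLR1B, were called higher within AML1-ETO siRNA and none lower.

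Against untransfected cells, the members were described for each transfected group. The 4 comparisons share the same 2 untransfected arrays. The share of all genes without overlap is not given for them, so separate groups are not read as a result about a member. With AML1-ETO siRNA by nucleofection 1 of 30 members was called, against 8.15% of all genes. Below 0 lay 23 of 30 members (76.7%) and 4806 of the 7178 genes, with medians of −0.22 over the members and −0.17 over all genes. Under quantile normalization 18 members lay below 0 (median −0.03), and under median centring 17 (median −0.07). The member called was PUS7, which fell (6.42% of all genes were called lower), with a log2 difference of −0.83 (SE 0.18, adjusted p = 0.0192) and a ratio of 0.564. UTP20, with signals of 93.5 and 96.3 in untransfected cells, had −0.63 (adjusted p = 0.0528). NHP2, the RNA-binding protein of box H/ACA particles, had signals of 658, 695 and 634 with AML1-ETO siRNA by nucleofection and 915 and 789 in untransfected cells. The groups did not overlap, and the log2 difference was −0.36 (SE 0.14, adjusted p = 0.136). The PUS7 call was lost without AML1-ETO nucleofection replicate 1 or 3, and without either untransfected array, while its log2 difference with 1 array left out ran from −0.95 to −0.75. DDX21 had a mean signal of 1377, against 1552 in untransfected cells, and the groups overlapped. Its log2 difference ran from −0.34 to −0.10 with 1 array left out.

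With AML1-ETO siRNA by lipid 0 of 30 members were called, against 0.111% of all genes, and 1 had an unadjusted p below 0.05, against 5.84% of all genes. That was DDX21, with a log2 difference of −0.57 (SE 0.18, adjusted p = 0.541), all 3 arrays below both untransfected ones. PNO1 had −0.34 (adjusted p = 0.998). BYSL (bystin), a small subunit assembly factor, had signals of 83.7, 79.7 and 74.8, against 75.7 and 61.6 in untransfected cells, and its log2 difference was 0.22 (adjusted p = 0.998).

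With luciferase siRNA by nucleofection 0 of 30 members were called, against 5.14% of all genes, and 3 (10%) had an unadjusted p below 0.05, against 23.2% of all genes. POLR1B had signals of 126 and 109, against 88.4 and 79.9 in untransfected cells, and its log2 difference was 0.48 (SE 0.17, adjusted p = 0.116). PUS7 had −0.55 (SE 0.20, adjusted p = 0.131). RRS1, a large subunit regulatory protein, had signals of 96.1 and 149, against 207 and 159 in untransfected cells, groups that did not overlap. Its log2 difference was −0.60 (SE 0.26, adjusted p = 0.194). DDX21 had a mean signal of 1964, against 1552 in untransfected cells. Its log2 difference ran from 0.27 to 0.40 with 1 array left out.

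With luciferase siRNA by lipid 0 of 30 members were called by limma, against 0% of all genes, and 0 had an unadjusted p below 0.05, against 3.72% of all genes. The log2 differences of smallest p were 0.42 for UBTF, 0.32 for PES1 and 0.28 for POLR1B, each with an adjusted p of 1. DDX21 had −0.07, and turned to 0.03 without luciferase lipid replicate 2. The array of nucleofection without siRNA had no replicate. On it the median of the members was −0.04 relative to luciferase siRNA by nucleofection, with 17 of 30 below 0, and −0.06 relative to untransfected cells, against −0.14 over all genes.

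The members differed in how far arrays of 1 group spread. The median within-group SD was 0.19 on the log2 scale, against 0.24 over all genes tested. NHP2 (0.09) and NPM1 (0.10) were the steadiest. RRP1 (0.61) and MRTO4 (0.51) had the widest spreads. RRP1 had a signal of 4.18 on 1 luciferase lipid array, and 70.1 and 73.9 on the other two. RRN3 had signals between 2.03 and 24.8, below the floor of 20 on 11 of 14 arrays. Of the 9 members with several probe sets, PNO1 and UBTF had sets that differed in sign between the methods where 1 of them was called.

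Other genes of the same pathway were described from a list of 116, of which 86 were tested. With AML1-ETO siRNA 72 of 86 lay below 0 in the mean of both methods, with a median log2 difference of −0.16, and 0 were called, against 64.9% below 0, a median of −0.07 and 1.66% called over all genes. Those of smallest p were PA2G4, a nucleolar growth regulator (−0.39, adjusted p = 0.103), and the RNA exosome subunits EXOSC7 (−0.33, adjusted p = 0.11) and EXOSC2 (−0.39, adjusted p = 0.114). By nucleofection 1 of 86 (1.16%) was called, against 2.62% of all genes, and that was PA2G4, which fell (−0.65, adjusted p = 0.049). In the mean of both methods MYC had −0.07 (adjusted p = 0.777) and MAX −0.10. The antagonists of MYC went different ways, MXI1 with −0.35 (adjusted p = 0.368) and MNT with 0.23 (adjusted p = 0.699).

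Between the methods 19 of the 86 fell by nucleofection and 0 rose (22.1%), with a median of −0.17, against 22.0% called lower and a median of −0.17 over all genes. Among them were EXOSC7 (−0.67, adjusted p = 0.000552), SDAD1, a large subunit factor (−0.59, adjusted p = 0.00399), and FTSJ3, a ribosomal RNA methyltransferase (−0.46, adjusted p = 0.00702). MYC had −0.02 (adjusted p = 0.911), and its antagonists MNT (−0.84, adjusted p = 0.0208) and MXI1 (−0.54, adjusted p = 0.0337) fell.

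The genes of the ribosome's own proteins were described beside the assembly factors. The 54 cytosolic ribosomal protein genes tested had a median log2 difference of 0.09 between AML1-ETO and luciferase siRNA, with 49 above 0 and 0 called. Between the methods 24 of them rose by nucleofection and 1 fell, with a median of 0.27, while 3.68% of all genes were called higher and 22.0% lower. The 48 mitochondrial ribosomal protein genes had medians of −0.15 between the siRNAs, with 42 below 0 and 0 called, and −0.27 between the methods, with 14 that fell and 3 that rose. No test of the lists against each other was made.

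**Figure D4:**
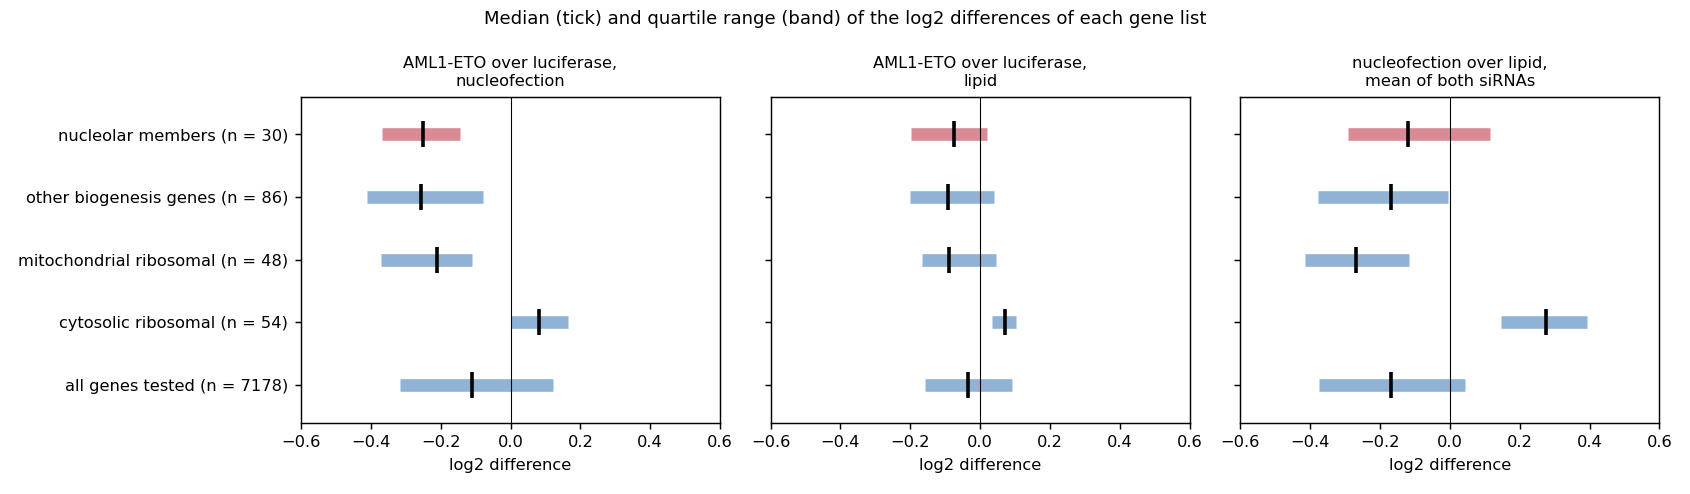
Median (tick) and quartile range (band) of the log2 differences (horizontal axes) of 5 gene lists in 3 comparisons: AML1-ETO minus luciferase siRNA by nucleofection, the same by lipid, and nucleofection minus lipid. The nucleolar members lie at −0.25, −0.07 and −0.12, next to the other biogenesis genes, while the cytosolic ribosomal protein genes lie above 0 in all 3.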

How the data were processed

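The deposited values were linear MAS5 intensities, computed by the authors with a version and settings not given in the sources used here (MAS5 is named in the submitters' processing notes). The labels list a scale factor for each array, and the deposited intensities averaged 139 on every array, which hides any shift common to most genes. Replicate 3 of luciferase by nucleofection and replicate 2 of the untransfected cells were not analysed here. The number of arrays limits the precision, and levels of different probe sets were not compared.

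Of 22283 probe sets, 19065 had 1 gene symbol in the platform annotation and 1043 had several. Intensities below 20, between 38.4% and 44.3% of an array, were raised to 20 before log2 was taken, which understates changes of dim genes. Each gene was represented by its single-symbol probe set of highest mean, and the upper 60% of genes, with a mean of at least 26.6, were tested. limma 3.58.1 in R 4.3.3 (lmFit and eBayes, 6 group means over 14 arrays, 8 residual and 4.65 prior degrees of freedom) gave 11 comparisons, with Benjamini-Hochberg adjustment over all 7178 genes. Steps were tested on simulated data. Figures used Python 3.11.15 and matplotlib 3.10.9.

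Members with a signal given for every array were those called, at most 6 each way, or otherwise the 3 of smallest p, and DDX21 throughout. DDX21 was singled out because it had the smallest p of the members in an earlier account of the whole series. NOP16, GNL2, MRTO4, NOP14 and other members were given by their differences. The members, lists and tests were chosen with earlier results of these data known. Alternatives changed the scaling, floor, filter, probe set, variance model, groups fitted, covariates, replicate block and single arrays.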

Additional observations from a re-analysis of the deposited data

Results flagged for a closer look

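WDR12 was on opposite sides between the methods in the 2 siRNAs. With AML1-ETO siRNA all 3 nucleofection arrays (347, 341 and 321) lay below all 3 lipid arrays (359, 359 and 474). With luciferase siRNA both nucleofection arrays (500 and 517) lay above all 3 lipid arrays (400, 429 and 492). The test of the difference gave −0.44 on the log2 scale (limma, adjusted p = 0.517), which missed the threshold. WDR12 was picked out for showing this pattern, and the share of all genes that show it is not given here.

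Control probe sets for ribosomal RNA, which entered no comparison, gave signals above the untransfected arrays on every nucleofection array. The lowest 18S 3′ signal was 199 on the nucleofection arrays and the highest in untransfected cells 74.8. The lowest 28S 3′ signal was 286 on the nucleofection arrays, against at most 257 in untransfected cells and 340 on the lipid arrays. Whether these control signals follow the cells' ribosomal RNA output was not tested.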

How the results depend on the processing

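Each count of members called was recomputed under 16 other settings and without each array in turn, where a group left with 1 array was assumed to vary like the others. For AML1-ETO over luciferase siRNA in the mean of both methods, 0 became 2 under quantile normalization and under the variance trend, 1 with the upper 40% of genes, with the mean of a gene's probe sets and with the scale factor as covariate, and between 0 and 1 with 1 array left out (1, DDX21, without AML1-ETO nucleofection replicate 2). By nucleofection 0 became 1 under quantile normalization, median centring, the upper 40% of genes and the scale factor, and 2 under the variance trend. Every call gained in these comparisons was DDX21 or WDR12, in the lower direction. For nucleofection over lipid in the mean of both siRNAs, 6 became 0 with the scale factor or the GAPDH ratio as covariate and without the 2 siRNA nucleofection arrays of highest 28S signal, a setting chosen after seeing the data, and between 1 and 5 with 1 array left out. In that comparison quantile normalization gave 5 higher and 0 lower, and median centring 3 higher and 1 lower. Within AML1-ETO siRNA 2 became 5 with the upper 40% of genes, 6 under the variance trend, 0 with only the groups compared, either covariate or without the 2 high-28S arrays, and between 0 and 3 with 1 array left out. Within luciferase siRNA 0 became 2 under quantile normalization. For AML1-ETO siRNA by nucleofection over untransfected cells 1 became 3 at a floor of 64, 2 with the upper 40% of genes, the mean of probe sets, the variance trend or array weights, 0 with only the groups compared, the scale factor or without the 2 high-28S arrays, and between 0 and 2 with 1 array left out. The counts of 0 by lipid, for the difference between methods and for the other 3 comparisons with untransfected cells kept their value under every setting run. The cause of these moves was not tested. For most of these settings the share of all genes called is not given here. Moves particular to the members therefore cannot be told from moves of all genes.

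With the replicate number as a block, the count became 2 for nucleofection over lipid (PNO1 and PUS7), 1 within AML1-ETO siRNA (PUS7) and 0 for AML1-ETO siRNA by nucleofection over untransfected cells. Same-numbered arrays of different groups had correlations of their deviations between −0.097 and 0.040 over 9 pairs, none above 0.1, so the numbers were not taken to pair the arrays. The DDX21 difference between methods in the siRNA effect, −0.02, turned to 0.0748 under quantile normalization, 0.0280 under median centring, 0.12 with the GAPDH ratio and 0.000209 without the 2 high-28S arrays, and ran between −0.17 and 0.0856 with 1 array left out. DDX21 with luciferase siRNA by lipid over untransfected cells ran between −0.12 and 0.0312. Over all genes, quantile normalization gave 191 calls in place of 119 between the siRNAs, 380 in place of 188 by nucleofection and 1133 in place of 1841 between the methods.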
